A study of Homo sapiens with 6 samples.

Results

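The genes examined were 10 feedback regulators of mitogen-activated protein (MAP) kinase signaling, taken by gene symbol from the 54259 symbols of the deposited count table. They were the dual-specificity phosphatase genes DUSP1, DUSP4, DUSP5, DUSP6 and DUSP10, the Sprouty genes SPRY1, SPRY2 and SPRY4, and the Spred genes SPRED1 and SPRED2. All 10 were found in the table and all 10 had enough counts to be tested. RNA-Sequence was performed on MDA-MB-231 cells, an established human breast cancer line, carrying a short hairpin RNA against the transcription factor brachyury (shBry, 3 libraries) or a control hairpin (shNC, 3 libraries). The comparison asked which transcripts differ between cells with the brachyury hairpin and cells with the control hairpin. Both groups were the same line and both carried a hairpin. The hairpin sequence, the time after its introduction and whether the cells were 1 clone or a pool are not given in the sources used here. The labels do not say whether the 3 libraries of a group came from separate cultures, so p-values measure the spread between these libraries, which may be technical.

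MAP kinase phosphatases remove the activating phosphates from the MAP kinases ERK, JNK and p38. Many of their genes are themselves switched on by the kinases they shut down, which makes them feedback regulators. Sprouty and Spred proteins act earlier in the same route, between growth factor receptors and the kinase RAF, and several of them are also transcribed in response to ERK. MDA-MB-231 is a line in which the RAS pathway carries activating mutations, so ERK signaling is active without added growth factor.

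Libraries held between 19319411 and 22985371 counts. With TMM scaling, 15277 genes passed the expression filter and went into a quasi-likelihood fit in edgeR. Genes were called where the p adjusted over all of them (Benjamini-Hochberg) was below 0.05 and the groups differed by more than 1.5-fold, always given as shBry over shNC. Errors of log2 values are standard errors (SE) of the fit. By this rule 32.4% of all tested genes were called, 17.1% higher and 15.2% lower in shBry. Brachyury itself, listed under its older symbol T, had 0 counts in all 6 libraries, those of shNC included. Its own transcript therefore says nothing on the labels, and the knockdown could not be checked by it. The paper describes brachyury as constitutively overexpressed in this line. The deposited description calls the RNA pericardial. The 6 mesenchymal markers of this line summed to 5940 to 6390 CPM (counts scaled to library size with TMM) in shBry and 6230 to 6530 in shNC. VIM had the highest level, with means of 3200 CPM in shBry and 3860 in shNC. S100A4 was scarce, with means of 8.6 CPM in shBry and 16 in shNC. S100A4 and CAV1 were called lower in shBry, and the other 4 were not called. The 5 luminal markers summed to 18.9 to 19.3 CPM in shBry and 14.8 to 17.2 CPM in shNC, nearly all of it GATA3 and FOXA1, while ESR1, PGR and CDH1 had at most 2 counts in any library. The leukocyte markers PTPRC and TYROBP were at 0 in every library, and the 4 leukocyte markers summed to at most 0.108 CPM in shBry and 0.229 CPM in shNC. The 4 mesothelial markers, of a lining tissue such as the pericardium, summed to 44.9 to 50.6 CPM in shBry and 35.4 to 39 CPM in shNC, nearly all of it MSLN, while WT1 and UPK3B had at most 7 counts in any library. The exception was CALB2, with 222 counts in shNC replicate 3 and at most 30 in any other library. In bulk RNA a change in the number of cells of a kind and a change in RNA per cell cannot be told apart.

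The region upstream of a transcription start holds many of the letters that signal-dependent transcription factors read, and it is shown here for genes that moved differently. RefSeq windows on GRCh38.p14, from 250 bases before to 50 after a start, were at hand for 15 of the 17 genes of these families, among them 8 of the 10 members. DUSP4 and DUSP5 had none. The letters TGACGTCA, the cAMP response element bound by CREB and ATF factors, were found in the single window of DUSP1 and of no other member. They occurred in 1.85% of all 35116 windows of this length. Among the 7 relatives described further on, DUSP8 had these letters at 2 places. In the other gene lists described below, windows of EPHA2 and NF1, both called higher, and of MAPK10, which was not tested, also held them. Only the 250 bases before the start are printed, for 4 genes whose upstream stretch overlaps no annotated exon. These 4 were picked by hand. DUSP1 and DUSP8 carry the full element, DUSP7 was called higher without it, and SPRY2, shown by the first of its 3 windows, was not called. DUSP8 passed the expression filter only through shBry, so a difference was built into its being tested. Whether the element bears on any of these levels was not tested. Capitals mark TGACGTCA, its short form TGACG on either strand, and the E-box CACGTG.
DUSP1, chr5:172771196-172771445, minus strand: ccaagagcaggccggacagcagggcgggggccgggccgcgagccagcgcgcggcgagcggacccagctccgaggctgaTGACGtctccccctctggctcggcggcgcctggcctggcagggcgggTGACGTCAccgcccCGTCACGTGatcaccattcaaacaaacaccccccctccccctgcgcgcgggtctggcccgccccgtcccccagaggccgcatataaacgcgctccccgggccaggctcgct
DUSP8, chr11:1572272-1572521, minus strand: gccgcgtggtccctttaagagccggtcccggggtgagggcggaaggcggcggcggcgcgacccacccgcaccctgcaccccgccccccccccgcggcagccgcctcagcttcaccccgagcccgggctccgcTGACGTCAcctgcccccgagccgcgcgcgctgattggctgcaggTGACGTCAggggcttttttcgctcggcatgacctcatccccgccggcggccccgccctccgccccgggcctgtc
DUSP7, chr3:52056572-52056821, minus strand: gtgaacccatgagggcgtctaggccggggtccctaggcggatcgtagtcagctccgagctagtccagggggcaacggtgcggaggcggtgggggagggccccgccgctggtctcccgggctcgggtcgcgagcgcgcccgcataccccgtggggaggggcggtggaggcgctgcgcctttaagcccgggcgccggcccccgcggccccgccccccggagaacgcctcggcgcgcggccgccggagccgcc
SPRY2, chr13:80341127-80341376, minus strand: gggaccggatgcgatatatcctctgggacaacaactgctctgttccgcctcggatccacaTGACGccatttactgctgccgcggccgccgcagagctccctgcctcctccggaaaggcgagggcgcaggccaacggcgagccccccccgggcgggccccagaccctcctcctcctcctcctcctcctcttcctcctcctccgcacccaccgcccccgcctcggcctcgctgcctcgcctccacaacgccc
The full element lies 125 to 118 bases before the start of DUSP1, and at 118 to 111 and 74 to 67 bases before that of DUSP8. DUSP1 also had an E-box at 108 to 103 bases, a motif found in 7.26% of all windows, which overlaps a short form on the opposite strand. The short form TGACG was in 24.6% of all windows and in 5 of the 13 windows of the 8 members. These windows belonged to DUSP1, DUSP10 and SPRY4, which were called, and to SPRY2 and SPRED2, which were not. DUSP6, SPRY1 and SPRED1, also not called, lacked the short form. Whether the short form bears on these levels was not tested. In SPRED2 it lay after the start. The AP-1 letters TGANTCA (7.71% of all windows) and the ATF4 letters TGATGNAA (3.62%) were each found among the members only in SPRED2, the ETS letters CCGGAA (17.2%) in SPRY1 and SPRY2, and CCAAT (34.6%) in DUSP6, DUSP10 and SPRED2. All motifs were searched on both strands, and a match describes letters, not binding.

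Of the 10 members, 4 were called, against 32.4% of all tested genes. All 4 were higher in shBry, namely DUSP1, DUSP5, DUSP10 and SPRY4, against 17.1% of all tested genes called higher. None was lower, against 15.2% called lower. The members' share called in either direction, 40%, lay near that of all tested genes. The median log2 fold change of the 10 was 0.28, against 0.03 over all tested genes. An adjusted p below 0.05 without the fold limit was reached by 5 members, against 53.3% of all tested genes, DUSP4 being the fifth. The 3 shBry values did not overlap the 3 shNC values in 6 members, against 59.5% of all tested genes.

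**Figure D1:**
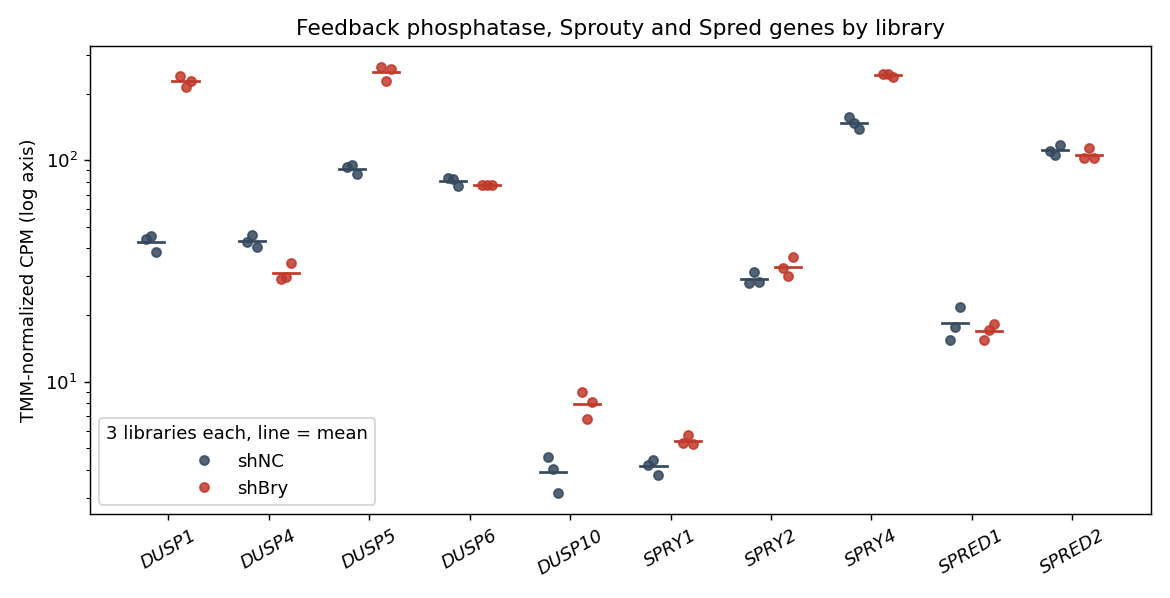
TMM-normalized CPM of the 10 members (log axis) in the 3 shNC and the 3 shBry libraries, each point a library and each line a group mean. The groups lie clearly apart for DUSP1, DUSP5, DUSP10 and SPRY4, with shBry higher, while DUSP6, SPRY2, SPRED1 and SPRED2 overlap.

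Of the 10 members, DUSP1 had the largest log2 fold change. DUSP1, an immediate-early phosphatase that acts on p38 and JNK as well as ERK, lies on chromosome 5 of GRCh38 from 172768090 to 172771195, minus strand. It had 240, 213 and 229 CPM in shBry replicates 1, 2 and 3 and 44.2, 45.6 and 38.5 CPM in the shNC replicates. The lowest shBry library was far above the highest shNC library. The mean rose from 42.8 ± 3.76 to 227 ± 13.8 CPM (SD, n = 3). On the log2 scale the difference was 2.41 (SE 0.09), with an edgeR adjusted p of 9.1e-11. This is a 5.31-fold rise with a 95% interval from 4.63 to 6.1. Of all tested genes, 98.8% had a smaller log2 fold change.

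DUSP5, a nuclear phosphatase specific for ERK, lies on chromosome 10 from 110497838 to 110511544, plus strand. It had 263, 228 and 259 CPM in the shBry replicates and 93.2, 95.4 and 86.5 CPM in the shNC replicates. All shBry libraries were again above all shNC libraries. The mean rose from 91.7 ± 4.63 to 250 ± 19.1 CPM (SD, n = 3), or by 1.44 on the log2 scale (SE 0.09, edgeR adjusted p = 7.8e-09), which is 2.72-fold with a 95% interval from 2.4 to 3.09. DUSP4, the third nuclear phosphatase among the members, on chromosome 8, had the opposite direction. It had 29, 29.7 and 34.3 CPM in shBry and 42.7, 46 and 40.6 CPM in shNC. The shBry values were all below the shNC values. Its log2 fold change was -0.47 (SE 0.10, edgeR adjusted p = 0.00153), which passes the p threshold but lies under the fold limit.

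DUSP6, the cytoplasmic phosphatase specific for ERK and a common readout of ERK activity, lies on chromosome 12 from 89347232 to 89353271, minus strand. Its level was nearly the same in all libraries, with 77, 77.1 and 77.6 CPM in shBry and 83.2, 82.5 and 76.8 CPM in shNC. The groups overlapped, since shNC replicate 3 lay below all shBry libraries. The log2 fold change was -0.07 (edgeR adjusted p = 0.51), with a 95% interval of the fold from 0.848 to 1.08, so a change past the limit of 1.5 in either direction lies outside this interval. An antisense gene overlaps 40.5% of the exon bases of DUSP6, and without a stated strand setting reads of the pair cannot be told apart. DUSP10, a phosphatase that prefers JNK and p38 to ERK, lies on chromosome 1 from 221701424 to 221742176, minus strand. It was scarce, with 8.94, 6.79 and 8.07 CPM in shBry and 4.58, 4.02 and 3.16 CPM in shNC, but the groups did not overlap. It rose from 3.92 ± 0.718 to 7.93 ± 1.08 CPM (SD, n = 3), or by 1.01 on the log2 scale (SE 0.19, edgeR adjusted p = 4.4e-04). The 95% interval of its fold, from 1.52 to 2.67, was wider than those of DUSP1 and DUSP5 relative to its size.

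SPRY4 was the Sprouty gene that rose. Sprouty proteins restrain RAS and RAF activation below receptor tyrosine kinases, and SPRY4 lies on chromosome 5 from 142310427 to 142326455, minus strand. It had 245, 244 and 238 CPM in shBry and 157, 147 and 138 CPM in shNC, with no overlap. The mean rose from 147 ± 9.62 to 242 ± 3.75 CPM (SD, n = 3), or by 0.72 on the log2 scale (SE 0.08, edgeR adjusted p = 3.5e-06), which is 1.65-fold with a 95% interval from 1.46 to 1.85. The low end of this interval is under the fold limit of 1.5. SPRY2, on chromosome 13 from 80335976 to 80340951, minus strand, had 32.6, 29.9 and 36.6 CPM in shBry and 27.9, 31.4 and 28.1 CPM in shNC. These values overlap, and the log2 fold change was 0.18 (edgeR adjusted p = 0.187), with a 95% interval of the fold from 0.961 to 1.33. SPRY1, on chromosome 4 from 123396795 to 123403760, plus strand, had 5.28, 5.73 and 5.23 CPM in shBry and 4.22, 4.44 and 3.81 CPM in shNC. The shBry libraries were all higher, but its log2 fold change of 0.38 had an adjusted p of 0.0775 in edgeR, with a 95% interval of the fold from 1.01 to 1.68.

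The Spred genes SPRED1 and SPRED2, whose products bring the RAS inhibitor neurofibromin to the membrane, were not called. SPRED2, on chromosome 2 from 65310851 to 65432637, minus strand, had 102, 114 and 102 CPM in shBry and 110, 106 and 117 CPM in shNC. The groups overlapped, with a log2 fold change of -0.06 (edgeR adjusted p = 0.544) and a 95% interval of the fold from 0.846 to 1.08. SPRED1, on chromosome 15 from 38252326 to 38357249, plus strand, had 15.5, 17.1 and 18.2 CPM in shBry and 15.5, 17.7 and 21.8 CPM in shNC. Its log2 fold change was -0.11 (edgeR adjusted p = 0.513), with an interval of the fold from 0.749 to 1.14. The direction rested on shNC replicate 3, without which the log2 fold change was 0.001 (edgeR adjusted p = 0.996).

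Relatives that complete both families were read beside the members. They were the phosphatase genes DUSP2, DUSP7, DUSP8, DUSP9 and DUSP16, and SPRY3 and SPRED3. DUSP7, the closest relative of DUSP6 by its cytoplasmic place and its choice of ERK, lies on chromosome 3 from 52048919 to 52056550. It had 142, 125 and 136 CPM in shBry and 81.7, 82.4 and 74.6 CPM in shNC. It rose by a log2 fold change of 0.76 (SE 0.08, edgeR adjusted p = 4.3e-06), where DUSP6 had -0.07. The third gene of that class, DUSP9, on chromosome X, was scarce and fell. It had 1.4, 2.4 and 2.53 CPM in shBry and 5.96, 6.48 and 3.81 CPM in shNC. Its log2 difference was -1.35 (SE 0.26, edgeR adjusted p = 6.0e-04). The cytoplasmic ERK phosphatases therefore included a gene called higher, a gene called lower and a gene that was not called.

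DUSP2, an inducible nuclear phosphatase best known from immune cells, and DUSP8, a JNK and p38 phosphatase, had under 10 counts in every shNC library and passed the expression filter only through shBry, so a difference was built into their being tested. DUSP2 had 18, 11 and 12 counts in shBry and 1, 3 and 2 counts in shNC. Summed over libraries and scaled, its ratio was 6.63 with a 95% counting interval from 2.8 to 19.1. DUSP8 had 20, 30 and 35 counts in shBry and 2, 9 and 6 in shNC, a ratio of 4.85 with a counting interval from 2.86 to 8.72. These intervals cover counting error only. A small part of DUSP8 transcripts, 1.9% of stretches of 50 bases, also occurs in DUSP8 pseudogenes. DUSP16, a JNK phosphatase, and SPRY3 were not tested, with at most 17 and 2 counts in any library. SPRED3 had 32.8, 33 and 33.2 CPM in shBry and 22.5, 21.3 and 23.6 CPM in shNC, with no overlap. Its log2 fold change of 0.55 (SE 0.10, edgeR adjusted p = 4.4e-04) was just under the fold limit, at 1.47-fold.

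**Figure D2:**
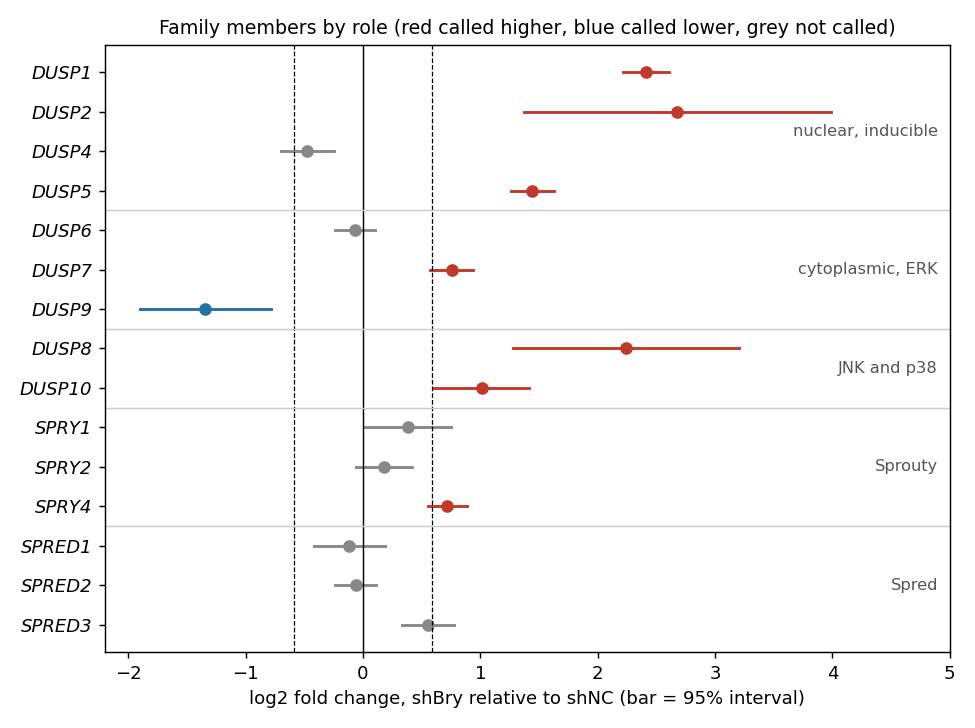
Log2 fold change of shBry relative to shNC for the 15 tested phosphatase, Sprouty and Spred genes, grouped by role, with 95% intervals from edgeR and dashed lines at the fold limit of 1.5. DUSP1 and DUSP5 lie well past the limit, while DUSP6, SPRED1 and SPRED2 lie at 0 within their intervals. The intervals of DUSP2 and DUSP8 are wide.

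Levels of different genes were compared per kilobase of annotated exon. On this scale DUSP5 was the most abundant phosphatase transcript in shNC, with 35.1 ± 1.77 CPM per kb (SD, n = 3), followed by DUSP1 with 21.2 ± 1.86, DUSP6 with 17.4 ± 0.761 and DUSP7 with 14.1 ± 0.763. Each of these lay apart from its neighbor by more than the SD of either. In shBry the order was different. DUSP1 led with 113 ± 6.82 CPM per kb, DUSP5 followed with 95.5 ± 7.3, DUSP7 had 23.8 ± 1.49 and DUSP6 16.7 ± 0.0689. DUSP4, DUSP10 and DUSP9 were below 6 CPM per kb in both groups. The summed length-scaled level of the 10 phosphatase genes was 99.7, 102 and 90.1 CPM per kb in the shNC replicates and 270, 239 and 262 in the shBry replicates. DUSP1 made up 21.8% ± 0.548 of this sum in shNC and 43.8% ± 0.499 in shBry (SD, n = 3). DUSP5 kept a like share, 36.1% ± 0.513 in shNC and 37.1% ± 0.679 in shBry. DUSP6 made up 18% ± 0.444 in shNC and 6.5% ± 0.408 in shBry, although its own level hardly differed.

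The sum over the 7 Sprouty and Spred genes moved less, from 61.2, 60.2 and 60.6 CPM per kb in the shNC replicates to 76.6, 78.3 and 77.4 in the shBry replicates. SPRY4 and SPRED2 were nearly level in shNC, with 22.4 ± 1.47 and 21.5 ± 1.09 CPM per kb (SD, n = 3), a difference within their spread. In shBry they lay apart, with 36.9 ± 0.57 for SPRY4 and 20.6 ± 1.32 for SPRED2. SPRY2 came next in both groups, with 9.6 ± 0.636 CPM per kb in shNC and 10.9 ± 1.11 in shBry, followed by SPRED3 with 3.83 ± 0.198 and 5.62 ± 0.0321, while SPRED1 and SPRY1 were below 3 CPM per kb. The annotated exon length stands for the transcripts used in these cells, which were not measured, so these levels are approximate.

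**Figure D3:**
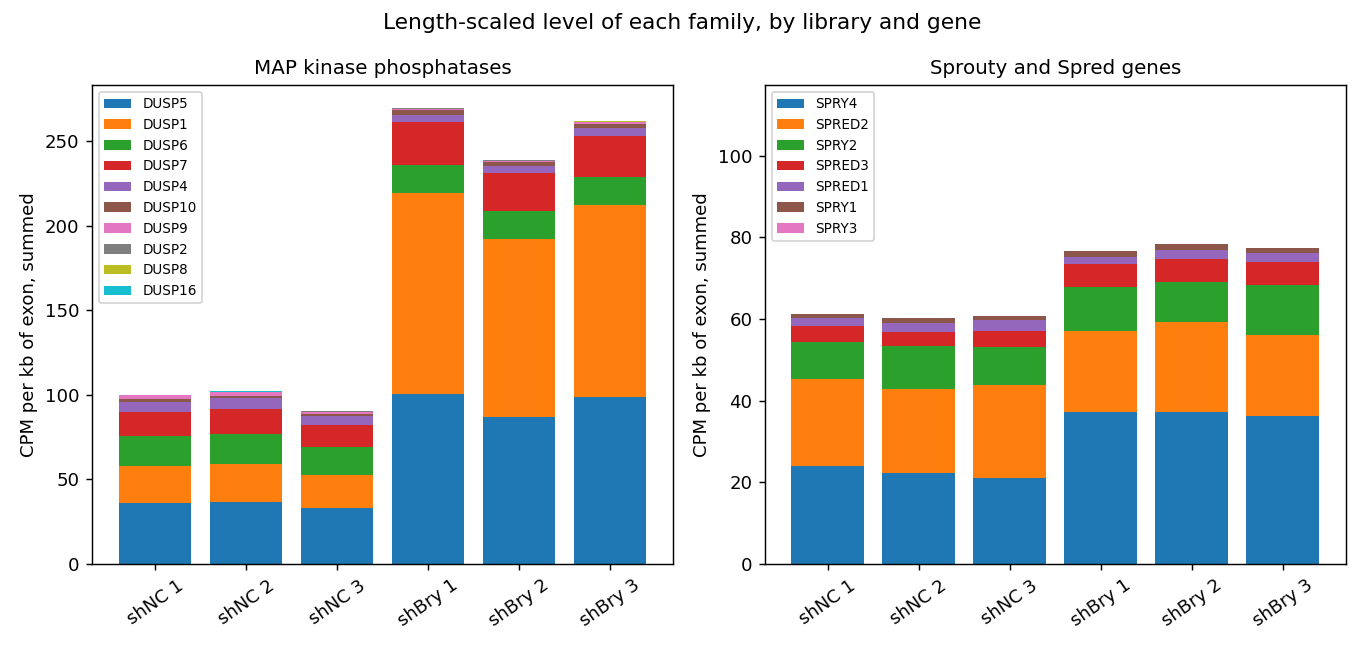
Length-scaled level (CPM per kb of annotated exon, summed, axes from 0) of the 10 phosphatase genes (left) and the 7 Sprouty and Spred genes (right) in each library, split by gene. The phosphatase bars are taller in all 3 shBry libraries, through DUSP1 and DUSP5, and SPRY4 accounts for most of the taller Sprouty and Spred bars.

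Ratios of 2 genes within a library do not depend on how libraries are scaled. The count ratio of DUSP1 to DUSP6 was 3.12, 2.76 and 2.95 in the shBry replicates and 0.531, 0.553 and 0.502 in the shNC replicates, a 5.57-fold difference. That of DUSP5 to DUSP6 was 3.41, 2.95 and 3.33 in shBry and 1.12, 1.16 and 1.13 in shNC, a 2.84-fold difference. For SPRY4 to SPRED2 it was 2.4, 2.14 and 2.33 in shBry and 1.43, 1.38 and 1.18 in shNC, a 1.72-fold difference. The groups did not overlap in these 3 ratios. The ratio of SPRED2 to SPRED1 overlapped between the groups, with 6.61, 6.66 and 5.63 in shBry and 7.06, 5.98 and 5.37 in shNC. With 3 libraries against 3, a two-sided exact permutation test cannot go below p = 0.1, the value that the first 3 ratios gave, so none can pass a threshold of 0.05. These ratios were chosen after the values had been seen.

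The kinases that these phosphatases act on were given by a list of 10 MAP kinase genes, of which 9 were tested. MAPK3, which encodes a MAP kinase of the ERK type, was the 1 gene called, and it was lower in shBry, against 15.2% of all tested genes called lower. MAPK3, on chromosome 16 from 30114105 to 30123506, had 76.2, 69.5 and 71.7 CPM in shBry and 126, 131 and 118 CPM in shNC. It fell by 0.78 on the log2 scale (SE 0.08, edgeR adjusted p = 2.4e-06). The remaining 8 tested kinases were not called. Over the 9 tested kinases the median was -0.14 on the log2 scale.

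Transcripts that are commonly induced by ERK were given by a list of 10 genes outside the families, 9 of them tested. Of these, 3 were called higher, 1 lower and 5 were not called, with a median log2 fold change of 0.14. The share called was 44.4%, against 32.4% of all tested genes. EGR1, an immediate-early transcription factor gene on chromosome 5 from 138465490 to 138469315, had 81.6, 83.6 and 73.6 CPM in shBry and 7.01, 7.52 and 6.61 CPM in shNC. It rose by a log2 fold change of 3.50 (SE 0.11, edgeR adjusted p = 1.4e-11). PHLDA1, a pleckstrin homology-like domain gene, rose from 472 ± 13.6 to 1460 ± 25.7 CPM (SD, n = 3), or by 1.63 on the log2 scale (SE 0.07, edgeR adjusted p = 5.5e-10), and antisense genes overlap 16.5% of its exon bases. EPHA2, an ephrin receptor gene named after its value was seen, had a log2 fold change of 0.80 (edgeR adjusted p = 1.2e-06). ETV1, an ETS factor gene, fell from 19.1 ± 1.69 to 9.34 ± 1.91 CPM (SD, n = 3), with a log2 value of -1.03 (SE 0.16, edgeR adjusted p = 7.1e-05). As with the phosphatases, the list held genes called in both directions. IER3 was not tested, with at most 1 count in any library. Its place on chromosome 6 is in a stretch, from GNL1 to RING1, in which the table gives 0 for 86 of 118 coding genes, so its level cannot be read from these counts.

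A further list held 10 genes that restrain signaling from receptors to ERK by other means, all tested. Of these, 2 were called higher, 2 lower and 6 were not called, with a median log2 fold change of 0.35. The share called, 40%, lay near the 32.4% of all tested genes. ERRFI1, a feedback inhibitor that binds the EGF receptor, rose from 249 ± 7.47 to 1330 ± 84.9 CPM (SD, n = 3), or by 2.41 on the log2 scale (SE 0.08, edgeR adjusted p = 2.6e-11), the same to 2 decimals as that of DUSP1. NF1, which encodes the RAS inhibitor neurofibromin that Spred proteins bind, had 22, 32 and 19.5 CPM in shBry and 12.6, 12.9 and 13.6 CPM in shNC. It rose by a log2 fold change of 0.91 (SE 0.17, edgeR adjusted p = 3.7e-04), and by 0.65 without shBry replicate 2. PEBP1, which encodes a protein that binds and inhibits RAF and has 9.49% of its exon bases overlapped by VSIG10, fell from 436 ± 12.1 to 129 ± 12.3 CPM (SD, n = 3), with a log2 value of -1.76 (SE 0.09, edgeR adjusted p = 1.2e-09). IL17RD, which encodes the membrane inhibitor SEF, fell from 25.6 ± 0.908 to 15.4 ± 1.8 CPM (SD, n = 3), with a log2 value of -0.73 (SE 0.12, edgeR adjusted p = 1.8e-04).

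Of 10 adaptors and partners of Sprouty and Spred proteins, all tested, 1 was called higher, 2 were called lower and 7 were not called, with a median log2 fold change of -0.03. The share called, 30%, lay near the 32.4% of all tested genes. CAV1, which encodes caveolin, a membrane coat protein that binds Sprouty proteins, fell from 189 ± 16.8 to 87.6 ± 4.68 CPM (SD, n = 3), with a log2 value of -1.11 (SE 0.09, edgeR adjusted p = 1.4e-07). SHC1, an adaptor gene, fell from 499 ± 11 to 301 ± 18 CPM (SD, n = 3), with a log2 value of -0.73 (SE 0.08, edgeR adjusted p = 2.6e-06), with 15.2% of its exon bases shared with PYGO2 and an antisense gene. SOS2, which encodes an exchange factor for RAS, had 11.8, 19.5 and 12.9 CPM in shBry and 8.34, 9.41 and 11.1 CPM in shNC. Its log2 fold change of 0.62 (SE 0.19, edgeR adjusted p = 0.0121) was called with all libraries. The call was lost without shBry replicate 2, with a log2 fold change of 0.35 (edgeR adjusted p = 0.0625), and without shNC replicate 1, with 0.52 (edgeR adjusted p = 0.0602).

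**Figure D4:**
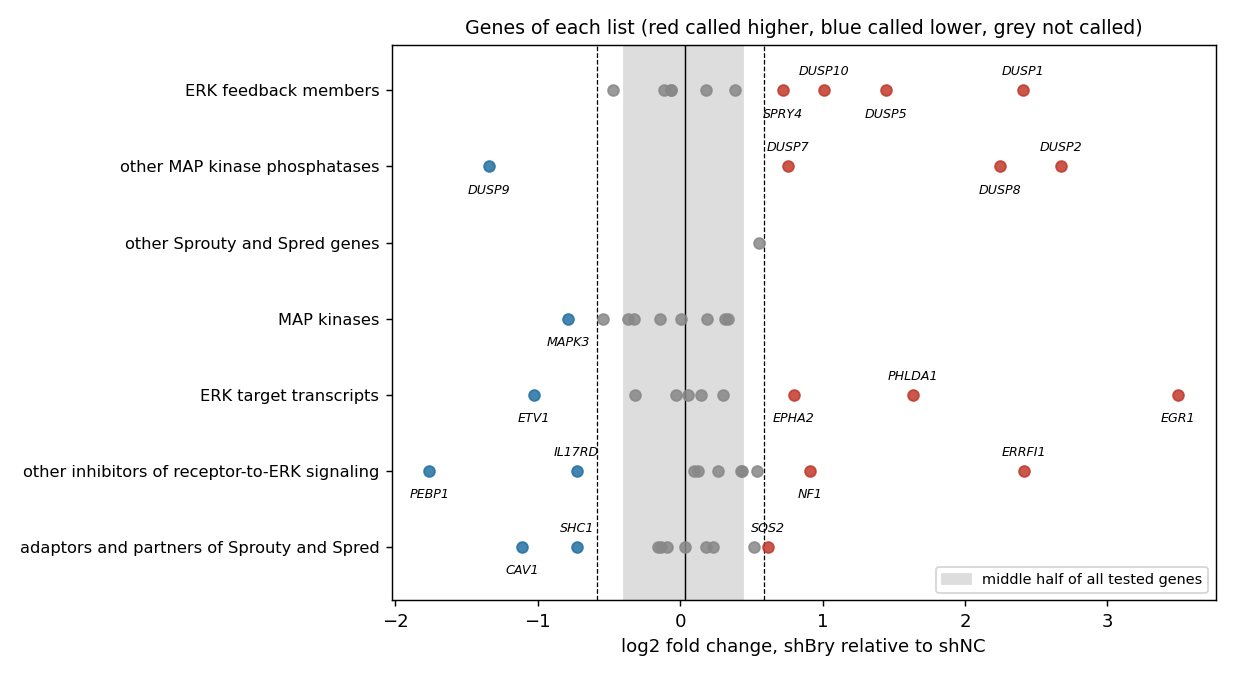
Log2 fold change of shBry relative to shNC for each tested gene of the 7 lists, with dashed lines at the fold limit of 1.5 and a grey band for the middle 50% of all tested genes, from -0.40 to 0.44. Called genes are named. They lie on both sides of 0 in the relatives, the ERK target transcripts, the other inhibitors and the adaptors, and on the higher side for the members.

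The calls of the members did not rest on a single library. DUSP1, DUSP5, DUSP10 and SPRY4 were called in all 13 fits, 1 as described and 12 with a library left out, another tool, scaling or expression filter, or a replicate block. With each library left out in turn, log2 values ran between 2.31 and 2.44 for DUSP1, between 1.38 and 1.49 for DUSP5, between 0.85 and 1.13 for DUSP10 and between 0.65 and 0.76 for SPRY4. DUSP10, the scarcest of the 4, had the widest range. DUSP4 kept an adjusted p below 0.05 in all 6 such fits and stayed under the fold limit in each, with values between -0.55 and -0.43.

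**Figure D5:**
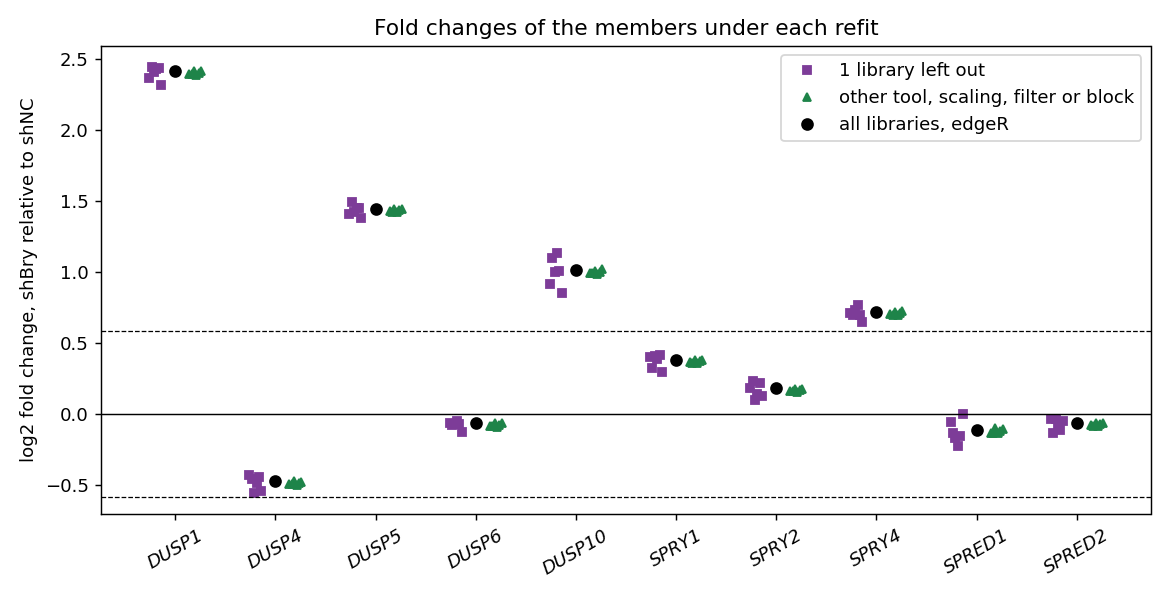
Log2 fold change of shBry relative to shNC for the 10 members with all libraries (circles), with 1 library left out (squares) and with another tool, scaling, filter or the replicate block (triangles). Dashed lines mark the fold limit of 1.5. The 4 called members stay above the upper line in every fit, and SPRED1 touches 0 in 1 of them.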

How the data were processed

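Total RNA of MDA-MB-231 shBry and shNC cells (3 libraries each) was sequenced. The table deposited by the authors holds unnormalized read counts by gene symbol. Their processing notes name HISAT2 2.0.4, HTSeq and GRCh38. The annotation and strand setting are not given in the sources used here. Samples were grouped by their hairpin label.

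Genes were filtered with filterByExpr (minimum count 10), scaled with TMM and compared with glmQLFit and glmQLFTest of edgeR 4.0.16 in R 4.3.3. Standard errors are the log2 fold change divided by the square root of F. The limit that 0 reads set (3 counts) was at most 0.155 CPM. Alternatives used DESeq2 1.42.0 and limma-voom (limma 3.58.1), other filters and limits, a replicate block and each library left out. Libraries of a group differed by more than sampling noise (chi-square per degree of freedom 4.94 to 16.7).

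Exon lengths and overlaps came from GENCODE 29, and upstream windows from RefSeq, by symbol. Other genes were named as the up to 2 largest called rises and falls of each further list. The members and lists were chosen with earlier results of these data known.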

Additional observations from a re-analysis of the deposited data

How the results depend on the processing

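Of 418 gene values read under alternatives for the named genes, 405 kept their direction and their side of the call. Settings that changed only the fold limit or the p threshold reused the same fit, so no direction could change there. Of the rest, 10 lost the call and 2 gained it (DUSP4 and SPRED3, with no fold limit). The last 1 changed sign (SPRED1, between -0.23 and 0.001 with a library left out, the latter without shNC replicate 3). Of the 10 lost calls, 8 came from a fold limit of 2. The number of members called was 4 with each library left out. Of the 15277 genes tested with all libraries, 2297 were called with a limit of 2 and 8139 (53.3%) with none. Between 4587 and 5025 genes were called with a library left out, of 15493 to 15691 then tested. With a limit of 2, 3 members were called, SPRY4 losing its call, and with no limit 5, DUSP4 being added. With a limit of 2, the calls were 0 of 9 tested MAP kinases, 2 of 10 other inhibitors and 1 of 10 adaptors, against 2297 of 15277 genes. With no limit these were 6, 7 and 5, against 53.3% of all tested genes. SPRED3, the 1 tested gene of the other Sprouty and Spred genes, was then called as well. Of the other phosphatases, 4 of the 4 tested were called with all libraries, against 32.4% of all tested genes. DUSP2 and DUSP8 were among them, and both passed the expression filter only through shBry. Where at least 10 counts in every library were required, DUSP2 and DUSP8 were not tested. Of the other phosphatases 2 of 2 were then called, against 4432 of 13859 genes. With a library left out, 1 to 2 MAP kinases, 4 to 5 other inhibitors and 2 to 3 adaptors were called, and 4 in both the ERK targets and the other phosphatases. The second MAP kinase, also lower, was called without shBry replicate 1 and without shNC replicate 3.

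Deviations from the group mean had correlations of 0.183, -0.08 and -0.03 between same-numbered libraries. The highest value, 0.227, was that of shBry replicate 2 with shNC replicate 3. With 3 libraries in each group, such values cannot settle whether samples were paired or shared a batch. With the replicate number as a block, 4914 of all genes and the same number of members, 4, were called. Scaling by library size or by DESeq2 moved the median of all genes by -0.02. The depth limits DUSP2, DUSP8, DUSP16 and SPRY3, which had few counts.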

Other observations

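The count table also lists 14 dual-specificity phosphatase symbols outside the MAP kinase phosphatase class, most of them atypical phosphatases with other or broader substrates. They were looked at after the members' values were known. Of the 11 that were tested, 2 were called higher in shBry, 1 was called lower and 8 were not called, where 32.4% of all tested genes were called, 17.1% higher and 15.2% lower. DUSP3 was the most abundant, with 131 ± 10.6 CPM in shBry and 170 ± 5.81 CPM in shNC (SD, n = 3), which differ by -0.38 on the log2 scale (edgeR adjusted p = 0.00162), under the fold limit. The called genes were scarce. DUSP28 had 2.99 ± 0.443 CPM in shBry and 1.76 ± 0.388 in shNC, DUSP15 had 4.77 ± 1.4 and 2.87 ± 0.598, and DUSP13 had 4.95 ± 1.12 and 7.48 ± 1.15 (SD, n = 3). Their adjusted p lay between 0.0188 and 0.0216 in edgeR.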
